A study of Homo sapiens with 6 samples.

Results

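The cells described here are the mitotic-high and mitotic-low cells of SK-N-BE(2)-C cultures treated with TSA. A cell's mitotic score was the percent of its UMIs (unique molecular identifiers, each standing for 1 captured RNA molecule) that came from TOP2A, MKI67, CENPF, NUSAP1, TPX2, UBE2C, CCNB1, CDK1, BIRC5 and HMMR. Within each TSA library the 25% of cells with the highest score formed the mitotic-high side and the 25% with the lowest the mitotic-low side. There were 463 cells per side in TSA replicate 1 and 697 per side in TSA replicate 2, which is 2320 of the 4641 TSA cells and of the 11937 cells of the whole series. The scores of these 10 genes chose the cells, so their own values are a description with no test, and they were left out of every result below.

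SK-N-BE(2)-C is an established cell line grown from a human neuroblastoma, a childhood tumour of the sympathetic nervous system. Its cells were measured singly by Seq-Well S3, in which each cell shares a small well with a barcoded bead. The 6 libraries came from cells treated with DMSO (the solvent), TSA (the usual abbreviation of trichostatin A, which blocks the catalytic site of histone deacetylases, HDACs) or E6R, with 2 libraries per treatment. E6R is known here only by this name, and the design text calls the agents HDAC inhibitors. Doses, treatment times and whether the 2 libraries of a treatment came from separate cultures are not given in the sources used here, so p-values measure the spread between these libraries, which may be technical. DMSO libraries split by the same score are used for comparison, and E6R libraries only for the common estimate of spread.

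Genes needed to divide are transcribed in waves. Those for DNA replication are switched on by E2F factors around the start of S phase, and those for the spindle, the kinetochores and cytokinesis are switched on in G2 by the MuvB complex together with MYBL2 and FOXM1, through a promoter element called the CHR and often with NF-Y bound to CCAAT boxes nearby. HDAC inhibitors raise histone acetylation, and in cultured tumour cells they are known to slow the cycle, classically with induction of the CDK inhibitor CDKN1A. Neuroblastoma lines can hold cells of an adrenergic type, which make catecholamine enzymes, and of a mesenchymal type, which make matrix and contractile proteins.

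The score separated the sides by different amounts in the 2 TSA libraries. Summed over cells, the 10 genes made up 0.574% of UMIs in the mitotic-high and 0.0472% in the mitotic-low side of replicate 1, a ratio of 12.2. In replicate 2 they made up 0.541% and 0.122%, a ratio of 4.43. TOP2A, the topoisomerase that untangles sister chromatids, had 8597 UMIs in the high and 433 in the low side of replicate 1, and 6106 and 1014 in replicate 2. A TOP2A UMI was seen in 98.3% and 94.4% of mitotic-high cells and in 44.3% and 53.8% of mitotic-low cells. HMMR, which binds the spindle, was seen in 40.8% and 26.3% of high cells and in 3.24% and 6.17% of low cells. Barcodes with fewer than 500 UMIs, which may hold free RNA or poorly captured cells, carried the 10 genes at 0.296% and 0.320% of UMIs. That level lay above the mitotic-low and below the mitotic-high side in both libraries.

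**Figure D1:**
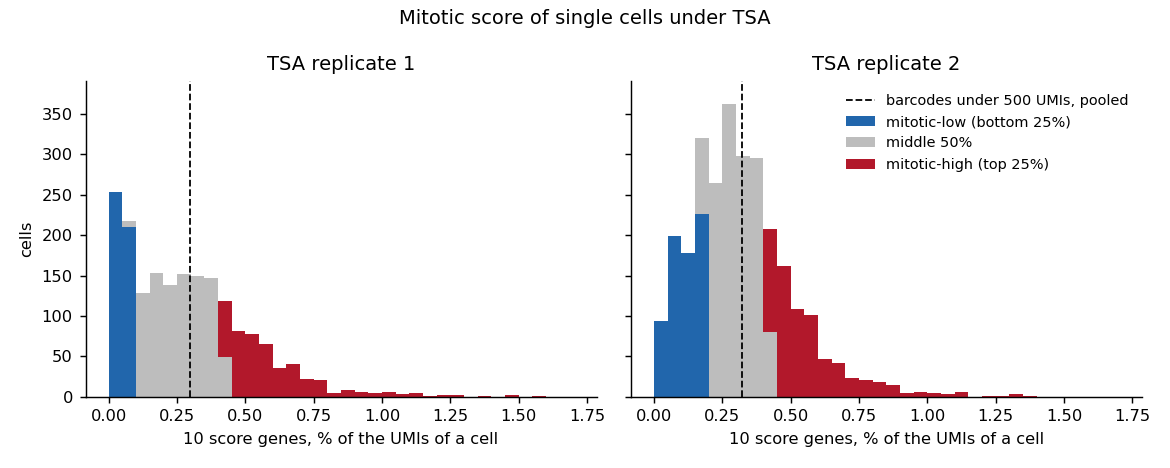
Histograms of the mitotic score, in percent of a cell's UMIs (x axis), against the number of cells (y axis) in the 2 TSA libraries, with the mitotic-low side in blue, the middle cells in grey, the mitotic-high side in red, and a dashed line at the pooled level of barcodes under 500 UMIs (0.296% and 0.320%). The scores form a continuous range, and the lowest bin holds more cells in replicate 1 than in replicate 2.

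The sides were cut from a continuous range and are not cell types. In replicate 1 the highest score of the low side was 0.0973% and the next cell above had 0.0974%, while the lowest score of the high side and the next cell below were both 0.415%. In replicate 2 the low side ended at 0.189%, with the next cell at 0.189%, and the high side began at 0.418%, with the next cell also at 0.418%. Within 0.05 percentage points of the lower cut lay 340 and 575 cells, and of the upper cut 251 and 446 cells. No UMI of the 10 genes was found in 117 cells of replicate 1 and 76 of replicate 2, all on the low side.

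Depth and mitochondrial RNA moved with the sides. The mitotic-high cells had a median of 3148 and 2074 UMIs, and the mitotic-low cells 2678 and 1817. The sums tested held 4132907 and 3257955 UMIs on the high side and 2811662 and 2532212 on the low side. In replicate 1 the median share of mitochondrial UMIs was 7.54% in mitotic-high and 2.29% in mitotic-low cells, and 56.2% of the low cells, against 24.6% of the high cells, had under 3%. In replicate 2 the medians were 9.78% and 9.92%, and 2.01% of high and 0.861% of low cells had under 3%. TSA replicate 1 therefore stands apart in its low side, and results are given without each TSA library and, as an alternative chosen after seeing the data, in cells with at least 3% mitochondrial UMIs. The 2 TSA libraries shared 8 cell barcodes, and any pair of libraries shared 6 to 28.

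Of 13540 genes tested, 963 (7.11%) differed between the sides under TSA. In mitotic-high cells 516 genes (3.81%) were higher and 447 (3.3%) lower. These calls are from edgeR's quasi-likelihood test with Benjamini-Hochberg adjusted p under 0.05. The fitted change was at least 2-fold for 250 higher and 190 lower genes, and at least 4-fold for 42 higher and 40 lower. The direction was the same in both libraries for 961 of the 963. The calls were made from these same libraries, so this agreement is largely set by the call and is not separate evidence. Levels are given in CPM, UMI counts scaled to a common library size. Among the genes called higher, the median log2 ratio was 1.33 in replicate 1 and 0.67 in replicate 2, and among those called lower -1.12 and -0.72, so both sets lay further apart in replicate 1. The split moved with scaling: with total counts only in place of TMM, 379 genes were higher and 562 lower, with the median of all genes at -0.08. The count was 159 without TSA replicate 1, 533 without E6R replicate 1, 529 without E6R replicate 2 and 637 in cells with at least 3% mitochondrial UMIs. DESeq2 called 258 genes, 51 were called in cells thinned to 1000 UMIs, 533 without the 5% largest cells and 0 with no library block.

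**Figure D2:**
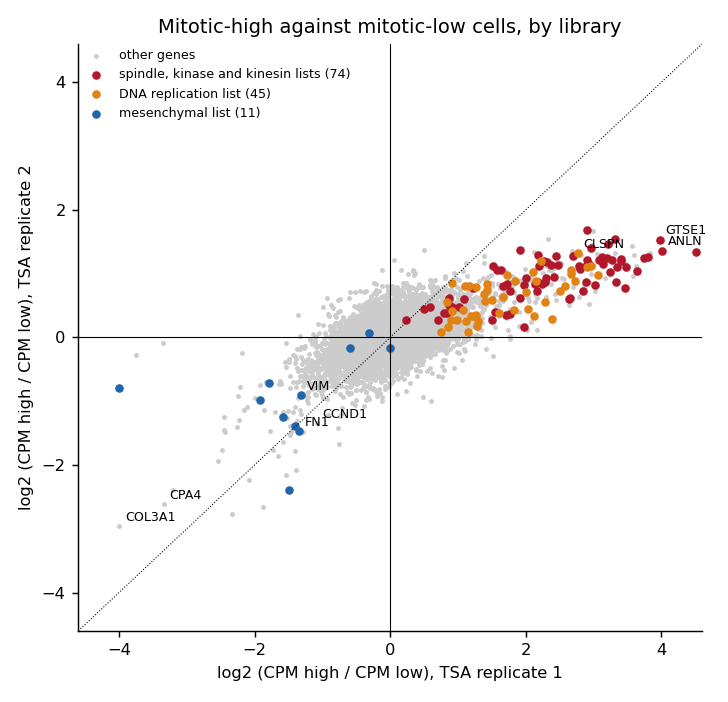
Log2 ratio of CPM, mitotic-high over mitotic-low, in TSA replicate 1 (x axis) against TSA replicate 2 (y axis) for genes with a UMI in all 4 sums and a mean of at least 20 CPM. Red, orange and blue points are members of the spindle, kinase and kinesin lists, the DNA replication list and the mesenchymal list, and the dotted line marks equal ratios. Most red and orange points lie below the dotted line at positive ratios, and COL3A1 and CPA4 lie at the lower left.

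Among called genes with a mean of at least 20 CPM over the 4 sums, the 10 largest rises in mitotic-high cells were GTSE1, ANLN, NCAPG, ASPM, ZGRF1, KIF18B, CDC20, ESCO2, CDCA3 and TACC3. Their log2 fold changes, high over low, lay between 2.23 and 2.52. Most of these genes act in mitosis, while ESCO2 acetylates cohesin during replication and ZGRF1 is a helicase of DNA repair. GTSE1 (ENSG00000075218; GRCh38 chromosome 22, 46296741 to 46330810, plus strand, protein coding), a microtubule-binding protein of G2 and mitosis, had 162 CPM in the high and 10.2 in the low side of replicate 1, and 154 and 53.2 in replicate 2. Its high sums both lay above its low sums, with a fitted log2 fold change of 2.52 (SE 0.42, adjusted p = 0.000683). ANLN (ENSG00000011426; chromosome 7, 36389806 to 36453791, plus strand, protein coding), the anillin scaffold of the contractile ring, had 401 and 24.9 CPM in replicate 1 and 446 and 174 in replicate 2. The log2 fold change was 2.49 (SE 0.39, adjusted p = 0.000437). On the other strand ANLN overlaps KIAA0895, and reads of overlapping genes cannot be told apart where the strand rule of the counting is not given. NCAPG (ENSG00000109805; chromosome 4, 17810902 to 17844862, plus strand, protein coding, overlapping LCORL on the other strand), a condensin subunit, had 209 and 14.6 CPM in replicate 1 and 156 and 62.6 in replicate 2. Its log2 fold change was 2.41 (SE 0.41, adjusted p = 0.000866).

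These 3 promoters are shown because they belong to the genes with the largest rises that hold TTTGAA, the core of the CHR element, read on either strand. Each line gives the 250 bases before the RefSeq transcription start (GRCh38.p14, plus strand, 5′ to 3′), with TTTGAA or its reverse complement TTCAAA and CCAAT in capitals. The coordinates are chr22:46296620-46296869 for GTSE1, chr7:36389612-36389861 for ANLN and chr4:17810729-17810978 for NCAPG.
GTSE1: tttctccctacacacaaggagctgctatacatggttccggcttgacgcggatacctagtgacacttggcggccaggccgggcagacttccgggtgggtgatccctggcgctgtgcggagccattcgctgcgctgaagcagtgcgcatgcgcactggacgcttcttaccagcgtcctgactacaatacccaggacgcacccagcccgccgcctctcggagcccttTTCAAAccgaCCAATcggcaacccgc
ANLN: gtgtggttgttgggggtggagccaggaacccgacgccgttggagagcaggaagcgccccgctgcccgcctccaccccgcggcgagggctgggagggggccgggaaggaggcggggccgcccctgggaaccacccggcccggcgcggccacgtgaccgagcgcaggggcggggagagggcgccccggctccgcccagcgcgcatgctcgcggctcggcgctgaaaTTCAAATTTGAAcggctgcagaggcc
NCAPG: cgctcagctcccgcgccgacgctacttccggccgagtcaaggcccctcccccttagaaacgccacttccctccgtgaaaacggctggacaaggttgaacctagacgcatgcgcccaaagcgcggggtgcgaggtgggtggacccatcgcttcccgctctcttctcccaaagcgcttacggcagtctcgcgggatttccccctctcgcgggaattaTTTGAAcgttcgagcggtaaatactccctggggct

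The first base of the match lay 26 bases before the start in GTSE1 and ANLN and 35 bases before it in NCAPG. In GTSE1 a CCAAT box stood a few bases downstream of the match, and in ANLN the sequence and its reverse complement stood side by side. Among genes called higher in mitotic-high cells, 421 of 516 (81.6%) had a promoter in the RefSeq table. TTTGAA was present in 86 of these (20.4%), CCAAT on either strand in 58.4% and both in 15.9%. Over all 27305 promoters in the table the shares were 13.6% for TTTGAA, 33.0% for CCAAT and 4.85% for both. TTTGAA was in 16 of 32 matched promoters of the mitotic kinesin and spindle list, in 5 of 21 of the kinetochore list and in 1 of 43 of the DNA replication list, whereas CCAAT was in 75.0%, 66.7% and 51.2% of them. Sets with under 80% of their genes in the table (all tested genes, genes called lower, the kinase list and the mesenchymal list) are not given. These matches are descriptions of letters in a window and were not tested.

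The kinases, cyclins and phosphatases that drive entry into mitosis were higher in mitotic-high cells in all 21 members, against 3.81% of all genes tested. Their median log2 fold change was 1.77, beside -0.01 over all genes. PLK1, the kinase of centrosome maturation, had 79.7 CPM in the high and 9.14 in the low side of replicate 1, and 83.7 and 34.8 in replicate 2 (log2 fold change 2.04, SE 0.37, adjusted p = 0.00142). AURKA, the spindle pole kinase, had 88.6 and 23.4 CPM in replicate 1 and 89.7 and 34.8 in replicate 2, a fitted log2 fold change of 1.64 (SE 0.36, adjusted p = 0.00609). The high sums of both kinases were nearly equal between libraries, and their low sums were lower in replicate 1. CCNB2, a B-type cyclin, had 53.7 and 6.58 CPM in replicate 1 and 43.4 and 24.5 in replicate 2, with a fitted log2 fold change of 1.77 (SE 0.47, adjusted p = 0.025). CCNA2, the cyclin of S and G2 phase, changed by 1.85 (SE 0.44, adjusted p = 0.0114) and CDCA3, which acts at mitotic entry, by 2.25 (SE 0.36, adjusted p = 0.000486). Without TSA replicate 1, 10 of the 21 were called, and in cells with at least 3% mitochondrial UMIs 17. DESeq2 called 7, and 2 of 20 tested were called in cells thinned to 1000 UMIs, where the median was 0.95.

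Kinetochore and spindle checkpoint genes attach chromosomes to microtubules and delay anaphase until all are attached. They were higher in 19 of 26 members, against 3.81% of all genes tested, with a median log2 fold change of 1.59. CENPA, the histone H3 variant of centromeres, had 30.9 and 2.56 CPM in the high and low sides of replicate 1 and 22.8 and 8.48 in replicate 2, a fitted log2 fold change of 2.38 (SE 0.43, adjusted p = 0.00135). CENPE, the kinetochore kinesin, was more abundant, at 260 and 33.3 CPM and 218 and 82.4 CPM, and changed by 2.14 (SE 0.31, adjusted p = 0.000237). The 7 members that did not pass had fitted values between 0.25 and 1.39. Leaving out TSA replicate 1 left 8 of 26 called, DESeq2 called 7 and thinning left 2.

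Mitotic kinesins, spindle proteins and cytokinesis genes were higher in 32 of 34 members, against 3.81% of all genes tested, with a median of 1.52. PSRC1, a spindle protein, had 0.63 (adjusted p = 0.165) and CCDC34 had 0.68 (adjusted p = 0.0609), and they were not called. ASPM, which focuses spindle poles, had 531 and 53.4 CPM in replicate 1 and 369 and 126 in replicate 2, a fitted log2 fold change of 2.40 (SE 0.35, adjusted p = 0.000237). TACC3, which crosslinks spindle microtubules, had 494 and 46.5 CPM and 543 and 232 CPM, and changed by 2.23 (SE 0.36, adjusted p = 0.000535). KIF18B, a kinesin that shortens microtubules, changed by 2.31 (SE 0.42, adjusted p = 0.00138) at a lower level of 49.9 and 2.19 CPM in replicate 1 and 59.4 and 23.5 in replicate 2. Summed over the list, the genes made up 0.790% of UMIs in the high and 0.266% in the low side of replicate 1, and 0.739% and 0.412% in replicate 2. The count was 18 without TSA replicate 1, 31 in cells with at least 3% mitochondrial UMIs, 14 with DESeq2 and 7 in thinned cells.

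The anaphase-promoting complex and its partners split by role. Of 16 members 7 were higher, against 3.81% of all genes tested, with a median of 0.52. The called genes were regulators and substrates: CDC20, FZR1, PTTG1, UBE2S, ESPL1, FBXO5 and CDCA5. CDC20, the activator that starts anaphase, had 94.0 and 9.88 CPM in replicate 1 and 76.6 and 27.8 in replicate 2, a fitted log2 fold change of 2.27 (SE 0.36, adjusted p = 0.000439). FBXO5, an inhibitor of the complex during S and G2 phase, changed by 2.10 (SE 0.35, adjusted p = 0.000694), and PTTG1, the securin that holds separase inactive, by 1.21 (SE 0.21, adjusted p = 0.00101). The 9 genes not called were the core subunits measured, and their fitted values ran from -0.86 to 0.54. The count was 4 without TSA replicate 1, 4 with DESeq2 and 2 in thinned cells.

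Condensin and chromatin genes of mitosis were higher in 15 of 21 members, against 3.81% of all genes tested, with a median of 0.95. Besides NCAPG, the condensin subunit NCAPH had 85.6 and 7.68 CPM in replicate 1 and 86.0 and 38.6 in replicate 2, a fitted log2 fold change of 2.08 (SE 0.39, adjusted p = 0.00183). The 6 members not called included 3 with fitted values below 0.4, H2AFZ, H2AFV and HMGB3. H2AFZ, a histone H2A variant, had -0.35 (adjusted p = 0.255). There were 7 calls without TSA replicate 1, 7 with DESeq2 and 1 in thinned cells.

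**Figure D3:**
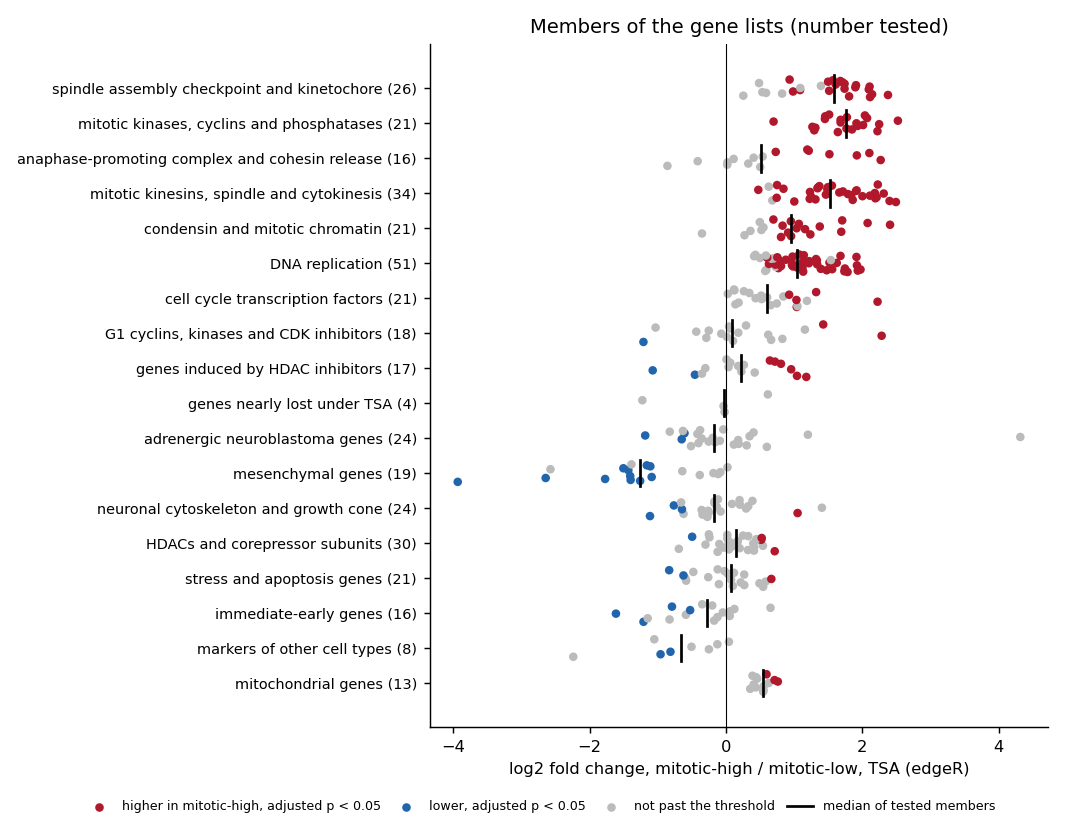
Each point is the edgeR log2 fold change (x axis, mitotic-high over mitotic-low under TSA) of 1 tested member of a gene list (rows, with the number tested), red where higher and blue where lower at adjusted p under 0.05, grey otherwise, and the black bar is the median. The 21 members of the kinase list are all red, and the mesenchymal list has 11 blue points and no red one.

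DNA replication genes were also higher in mitotic-high cells, in 41 of 51 members, against 3.81% of all genes tested, with a median of 1.05. The largest rises among called members were in CLSPN and CDT1. CLSPN (ENSG00000092853; chromosome 1, 35720218 to 35769967, minus strand, protein coding, overlapping AL354864.1 on the other strand), an adaptor of the replication checkpoint, had 172 and 25.2 CPM in replicate 1 and 196 and 78.6 in replicate 2, a fitted log2 fold change of 1.97 (SE 0.26, adjusted p = 9.85e-05). CDT1 (ENSG00000167513; chromosome 16, 88803213 to 88809258, plus strand, protein coding), which loads the replicative helicase in G1 phase, had 145 and 19.4 CPM in replicate 1 and 116 and 54.2 in replicate 2. It changed by 1.93 (SE 0.28, adjusted p = 0.000237). MCM2, a helicase subunit, had 73.7 and 24.1 CPM and 70.6 and 54.2 CPM, and changed by 0.97 (SE 0.24, adjusted p = 0.0157). PCNA, the sliding clamp of DNA polymerase, had 143 and 65.8 CPM and 111 and 92.8 CPM, and changed by 0.69 (SE 0.20, adjusted p = 0.0409). The sides of MCM2 and PCNA were close in replicate 2, and 11 of the 51 were called without TSA replicate 1, against 33 in cells with at least 3% mitochondrial UMIs, 17 with DESeq2 and 4 in thinned cells.

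Along the score, with the cells of a library cut into 4 equal groups (quartiles), the replication genes levelled off in the upper groups. From the lowest to the highest quartile, the replication list made up 0.193%, 0.439%, 0.595% and 0.604% of UMIs in replicate 1 and 0.363%, 0.476%, 0.550% and 0.547% in replicate 2. The kinesin and spindle list went from 0.266% to 0.451%, 0.612% and 0.790% in replicate 1 and from 0.412% to 0.530%, 0.610% and 0.739% in replicate 2. The kinesin list was thus higher in quartile 4 than in quartile 3 of both libraries, while the replication list was nearly level between them. Per cell, thinned to 1000 UMIs each, the median share of replication genes was 0.6% in high and 0.2% in low cells of replicate 1, and 0.5% and 0.4% in replicate 2. For the kinesin list these medians were 0.7% and 0.3%, and 0.6% and 0.4%. In DMSO the replication list ran 0.229%, 0.511%, 0.627% and 0.572% in replicate 1 and 0.362%, 0.450%, 0.446% and 0.438% in replicate 2.

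**Figure D4:**
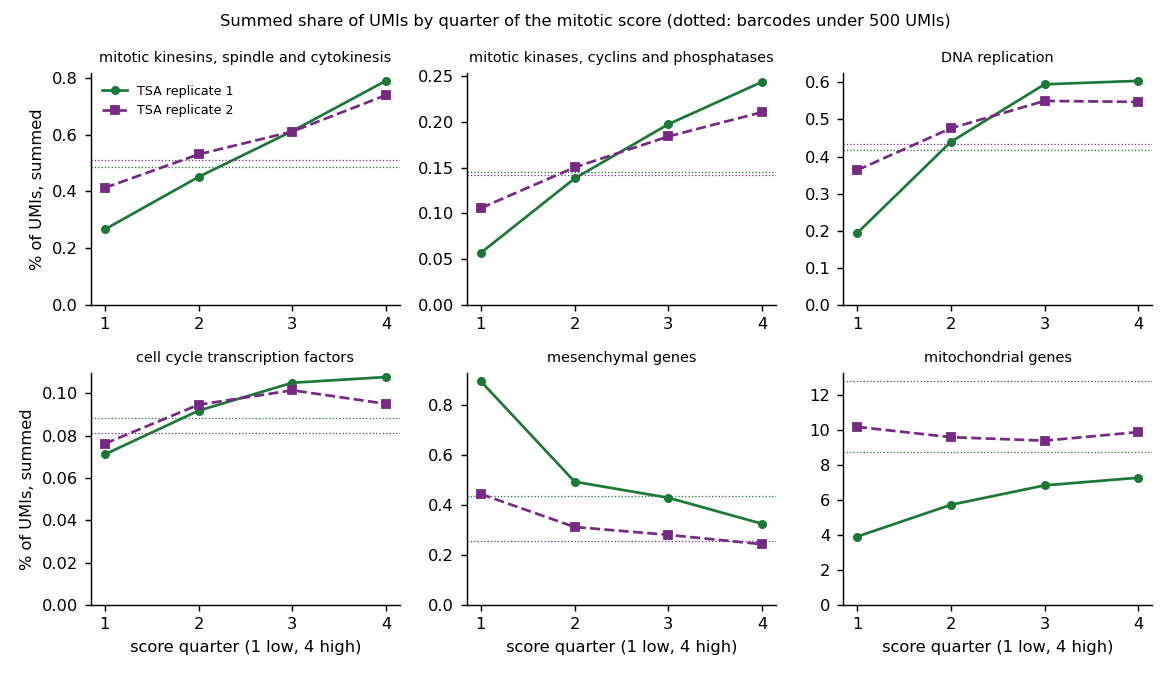
Percent of all UMIs from 6 gene lists (y axis, from 0), summed over the cells of each quartile of the mitotic score (x axis, 1 lowest to 4 highest), in TSA replicate 1 (green circles) and replicate 2 (purple squares), with dotted lines at the level in barcodes under 500 UMIs. The replication panel is flat between quartiles 3 and 4 (0.595% and 0.604%, 0.550% and 0.547%), the kinesin panel climbs through all 4, and the mesenchymal panel falls.

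Of the 21 transcription factors of the cycle and their partners 5 were higher, against 3.81% of all genes tested, with a median of 0.60. These were E2F1, E2F7, FOXM1, MYBL2 and RBL1. FOXM1, the G2 activator, had 136 and 48.3 CPM in replicate 1 and 169 and 111 in replicate 2, a fitted log2 fold change of 1.03 (SE 0.23, adjusted p = 0.00644). MYBL2 had 287 and 115 CPM and 212 and 147 CPM, and changed by 0.93 (SE 0.17, adjusted p = 0.00146). E2F7, a repressor in the E2F family, changed by 2.22 (SE 0.47, adjusted p = 0.00517) but at a level of 8.67 CPM or 8.97 CPM in the high sums. RBL1, a pocket protein that binds E2F factors, changed by 1.32 (SE 0.26, adjusted p = 0.00274). None of the 21 was called without TSA replicate 1.

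G1 regulators did not move as a group, with a median of 0.08. Of 18 tested members 2 were higher and 1 lower, beside 3.81% and 3.3% of all genes. The 2 higher genes were phosphatases. CDC25A, which activates CDK2, had 25.7 and 1.10 CPM in replicate 1 and 22.1 and 9.89 in replicate 2, a fitted log2 fold change of 2.28 (SE 0.44, adjusted p = 0.00253). Its low sum in replicate 1 held only 3 UMIs, and the fitted value was 1.15 without TSA replicate 1. CDKN3, which dephosphorylates CDKs, had 428 and 106 CPM and 378 and 208 CPM, and changed by 1.43 (SE 0.25, adjusted p = 0.00105). CCND1 (ENSG00000110092; chromosome 11, 69641087 to 69654474, plus strand, protein coding, overlapping LTO1 on the other strand), the D-type cyclin that opens the path into S phase, went the other way. It had 98.1 CPM in the high and 208 in the low side of replicate 1, and 86.0 and 218 in replicate 2, a fitted log2 fold change of -1.21 (SE 0.16, adjusted p = 0.000104). Over the 4 quartiles of the score CCND1 ran 202, 144, 97.7 and 87.6 CPM (plain UMI sums) in replicate 1 and 183, 103, 94.9 and 70.6 in replicate 2.

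The CDK inhibitor CDKN1A had 105 and 183 CPM in the high and low sides of replicate 1, and 92.0 and 92.8 in replicate 2. Its sides differed in the first library and were level in the second, and the log2 fold change of -0.43 (SE 0.17, adjusted p = 0.145) did not pass. CDKN1B had 15.4 and 15.0 CPM and 14.2 and 21.2 CPM, with -0.25 (SE 0.24, adjusted p = 0.609). CCNE2, the cyclin partner of CDK2, had 0.83 (SE 0.33, adjusted p = 0.156).

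Under the same limit of 20 CPM, the largest falls included COL3A1, CPA4, PRSS23, CCN2, ACTA2, LRRC17, TAGLN, FBN1 and VASN, with log2 fold changes between -3.61 and -2.12. They encode collagen, fibrillin and other secreted or membrane proteins, and actin with an actin-binding protein. In thinned cells COL3A1 (-2.11, adjusted p = 0.0395) and CPA4 (-1.85, adjusted p = 0.0351) were called. PRSS23, ACTA2, LRRC17, TAGLN, FBN1 and VASN kept negative fitted values there but were not called, and CCN2 had no fitted value. For TAGLN the thinned value was -1.71 (adjusted p = 0.0967) and for PRSS23 -1.13 (adjusted p = 0.336). COL3A1 (ENSG00000168542; chromosome 2, 188974320 to 189012746, plus strand, protein coding), a fibrillar collagen, had 7.32 CPM in the high and 117 in the low side of replicate 1, and 5.98 and 46.6 in replicate 2. Its log2 fold change was -3.61 (SE 0.28, adjusted p = 4.07e-07). CPA4 (ENSG00000128510; chromosome 7, 130293134 to 130324180, plus strand, protein coding), a secreted carboxypeptidase, had 20.3 and 206 CPM and 11.2 and 68.8 CPM, a fitted log2 fold change of -3.07 (SE 0.26, adjusted p = 1.34e-06). COL3A1 was concentrated in the lowest quartile: from lowest to highest it ran 113, 12.96, 22.98 and 6.53 CPM (plain UMI sums) in replicate 1 and 39.1, 6.65, 5.87 and 4.91 in replicate 2. TAGLN, an actin-binding protein of contractile cells, had 18.4 and 107 CPM and 11.6 and 44.3 CPM, and changed by -2.30 (SE 0.21, adjusted p = 2.39e-06).

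CCN2 and ACTA2 rested on TSA replicate 1. CCN2, a matricellular growth factor, had 5.69 and 91.1 CPM in replicate 1 and 10.8 and 18.8 in replicate 2, a fitted log2 fold change of -2.64 (SE 0.44, adjusted p = 0.000808). ACTA2, an actin of contractile cells, had 7.05 and 94.7 CPM and 9.72 and 11.8 CPM, and changed by -2.53 (SE 0.46, adjusted p = 0.00147). With that library left out the fitted values were -0.80 for CCN2 (adjusted p = 0.783) and -0.28 for ACTA2 (adjusted p = 0.968), and neither was called. For COL3A1, CPA4 and TAGLN they were -2.96, -2.62 and -1.93, and all were called.

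**Figure D5:**
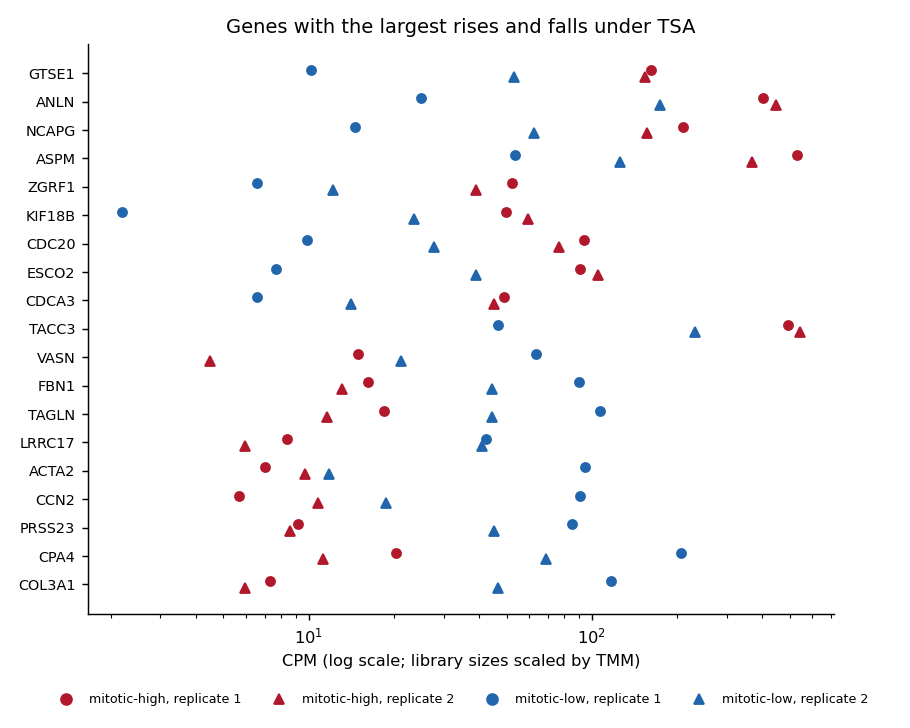
CPM on a log scale (x axis, library sizes scaled by TMM) of the 10 genes with the largest rises and 9 genes among the largest falls (rows), in mitotic-high (red) and mitotic-low (blue) cells of TSA replicate 1 (circles) and replicate 2 (triangles). For the rises the red points of the 2 libraries lie close together and the blue circle lies left of the blue triangle, and ACTA2 and CCN2 have a blue triangle near the red points.

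The mesenchymal list was lower in mitotic-high cells in 11 of 19 tested members and higher in none, against 3.3% of all genes called lower. Its median log2 fold change was -1.26. PRRX1, MEOX1, MEOX2, THBS1 and IFITM3 were too low to be tested. VIM, the intermediate filament of mesenchymal cells, had 1877 and 4657 CPM in replicate 1 and 1418 and 2653 in replicate 2, a fitted log2 fold change of -1.11 (SE 0.16, adjusted p = 0.000251). FN1, fibronectin, had 234 and 592 CPM and 271 and 751 CPM, and changed by -1.40 (SE 0.15, adjusted p = 1.39e-05). ANXA1, a membrane-binding annexin, passed on low counts (adjusted p = 0.000772), with 3 UMIs in the high and 37 in the low side of replicate 1 and 1 and 12 in replicate 2. WWTR1, a transcriptional cofactor related to YAP1, changed by -1.16 (SE 0.30, adjusted p = 0.0205). The transcription factors SNAI2 and TWIST1 had -0.64 (adjusted p = 0.423) and 0.02 (adjusted p = 0.978) and did not pass.

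Summed, the mesenchymal list went over the 4 quartiles from 0.897% to 0.494%, 0.429% and 0.325% of UMIs in replicate 1 and from 0.444% to 0.312%, 0.280% and 0.243% in replicate 2. In barcodes under 500 UMIs it was 0.437% and 0.258%, between the sides. The count was 7 of 20 without TSA replicate 1, 11 of 21 without TSA replicate 2, 9 of 15 in cells with at least 3% mitochondrial UMIs, 8 of 19 with DESeq2 and 5 of 12 in thinned cells. A lower level in a sum can come from fewer cells with the RNA or from less RNA per cell, and the sums do not tell these apart.

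Markers of leukocytes, epithelium, endothelium and fibroblasts together made up a small share of UMIs. The fibroblast markers COL1A1 and DCN were not near the floor, at up to 79.4 and 97.7 CPM in a sum. Of 14, 8 were tested and COL1A1 and DCN, both made by fibroblasts, were lower, against 3.3% of all genes tested. Neither was called without TSA replicate 1 (COL1A1 -0.49, adjusted p = 0.755, and DCN -0.68, adjusted p = 0.465), and DESeq2 called 0 of the list. COL1A1 had 30.9 and 79.4 CPM in replicate 1 and 36.3 and 50.9 in replicate 2, a fitted log2 fold change of -0.96 (SE 0.24, adjusted p = 0.0164). DCN had 52.3 and 97.7 CPM and 25.05 and 40.03 CPM, and changed by -0.81 (SE 0.18, adjusted p = 0.00682). COL1A2, which fibroblasts make together with COL1A1, had at most 1 UMI in each sum, and CD3E had 0 UMIs in all 4. Summed, the 14 markers made up 0.0104% of UMIs in the high and 0.0224% in the low side of replicate 1, and 0.00740% and 0.0100% in replicate 2. The part of such cells in the mesenchymal result was not tested.

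Of 24 adrenergic genes 3 were lower, against 3.3% of all genes tested, and none higher, with a median of -0.18. The lower calls ran from 0 without the 5% largest cells to 5 in cells with at least 3% mitochondrial UMIs. Thinned cells and sides of 10% gave 1 each. The median was 0.04 in thinned cells and without the 5% largest cells, and -0.28 in cells with at least 3% mitochondrial UMIs. Without TSA replicate 2, 3 were lower and 2 higher. HAND2 (ENSG00000164107; chromosome 4, 173524969 to 173530229, minus strand, protein coding, overlapping HAND2-AS1 on the other strand), a factor of sympathetic neurons, had 199 and 296 CPM in replicate 1 and 287 and 472 in replicate 2, a fitted log2 fold change of -0.65 (SE 0.14, adjusted p = 0.00478). PHOX2A, another such factor, had 7.05 and 19.4 CPM and 9.72 and 17.9 CPM, and changed by -1.18 (SE 0.26, adjusted p = 0.00697). SCG2, a granin of secretory vesicles, changed by -0.61 (SE 0.15, adjusted p = 0.0179). MYCN, the oncogene of this tumour, had 224 and 150 CPM and 297 and 273 CPM, with 0.35 (SE 0.17, adjusted p = 0.259). As a check of the cell label, GATA3, DBH, HAND2 and MYCN were all above 100 CPM in the 4 sums.

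Genes known to be induced by HDAC inhibitors were measured well on both sides, with a median of 0.23. In mitotic-high cells 6 of 17 tested members were higher and 2 lower, beside 3.81% and 3.3% of all genes. At least 4 genes of this list (AL606500.1, AL356804.1, TCN2 and PLIN5) were picked from earlier results of these libraries, so the list is not independent evidence. H1F0, the linker histone H1.0 of slowly dividing cells, had 1109 and 415 CPM in replicate 1 and 1634 and 1152 in replicate 2, a fitted log2 fold change of 0.96 (SE 0.17, adjusted p = 0.00136). AL606500.1, an unnamed transcript, had 186 and 61.1 CPM and 475 and 319 CPM, and changed by 1.04 (SE 0.19, adjusted p = 0.0018). TCN2, a carrier of cobalamin, had 118 and 71.7 CPM and 121 and 73.5 CPM, and changed by 0.72 (SE 0.17, adjusted p = 0.014). PLIN5, a lipid droplet coat protein, changed by 0.81 (SE 0.18, adjusted p = 0.00883) and AL356804.1, a lincRNA, by 1.18 (SE 0.27, adjusted p = 0.00884). TUBB2B, a tubulin, changed by 0.64 (SE 0.16, adjusted p = 0.0136). DHRS2, a dehydrogenase, had 745 and 544 CPM and 627 and 479 CPM, with 0.42 (SE 0.14, adjusted p = 0.0707), which did not pass. GSN, which severs actin filaments, and CLU, a secreted chaperone, were lower, by -1.07 (SE 0.19, adjusted p = 0.000986) and -0.45 (SE 0.13, adjusted p = 0.0417). None of the 17 was called without TSA replicate 1.

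The targets of TSA themselves lay level. HDAC1 had 160 and 157 CPM in replicate 1 and 170 and 163 in replicate 2, with a fitted log2 fold change of 0.04 (SE 0.15, adjusted p = 0.907), and HDAC2 had 301 and 247 CPM and 292 and 268 CPM, with 0.20 (SE 0.14, adjusted p = 0.434). The sign of HDAC1 was negative with total counts only. Of 30 HDACs and corepressor subunits, CHD4, RCOR1 and NCOR1 were higher and SAP18 lower, with a median of 0.15. Over all genes tested, 3.81% were called higher and 3.3% lower. CHD4, the remodelling enzyme of the NuRD complex, had 583 and 309 CPM and 651 and 455 CPM, and changed by 0.72 (SE 0.15, adjusted p = 0.00425). None of the 30 was called without TSA replicate 1.

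The remaining lists are given beside 3.81% of all genes called higher and 3.3% called lower. Of 24 neuronal cytoskeleton and growth cone genes tested, ELAVL3 was higher, at 196 and 89.3 CPM and 237 and 122 CPM (log2 fold change 1.05, SE 0.16, adjusted p = 0.000339), and DCX, PRPH and MAP2 were lower. Of 21 stress and apoptosis genes, DNAJB1, a heat shock cochaperone, was higher, at 0.67 (SE 0.15, adjusted p = 0.0073), and SQSTM1 and HSPA5 were lower, at -0.83 (SE 0.17, adjusted p = 0.00365) and -0.62 (SE 0.17, adjusted p = 0.028). Of 16 immediate-early genes, FOSL2, ARC, JUN and KLF2 were lower, with a median of -0.27. Without TSA replicate 1 the neuronal list had 1 call higher and 0 lower, the stress list 0 and 0, and the immediate-early list 2 lower, and with sides of 10% the immediate-early list had 0. In thinned cells no member was called in these lists or in those of transcription factors, G1 regulators, HDAC-inhibitor-induced genes and HDACs. The 4 genes nearly lost under TSA in earlier results (SLC6A2, CYB561, EDNRA and CCDC102A) were at most 0.00452% of UMIs in any of the 4 sums, and none was called. No ribosomal protein gene of 81 was called by edgeR or DESeq2, and their median was 0.04, but 12 were called higher without TSA replicate 2.

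Of the 13 mitochondrial genes, MT-ND2, MT-ND3 and MT-ND6 were higher, against 3.81% of all genes tested, and the median of all 13 was 0.55. All 13 were called higher without TSA replicate 2 and none without TSA replicate 1, where the median was 0.02. They made up 7.26% and 3.89% of UMIs in the sums of replicate 1, and 9.87% and 10.2% in replicate 2.

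Under DMSO the same split gave 249 called genes (1.84% of 13540), 168 higher and 81 lower. The score ratio between the sides was 24.5 and 5.03 there, and the sums were shallower, at 790770 to 957232 UMIs. Of the TSA calls 165 were also called under DMSO, which is 17.1% of the TSA calls and 66.3% of the DMSO calls, all in the same direction. Genes called higher under TSA had a median log2 fold change of 0.98 under TSA and 0.68 under DMSO, and those called lower -0.94 and -0.41. The TSA test chose these genes, which enlarges their TSA medians and not their DMSO medians. The medians therefore do not show that the sides differ less under DMSO. The kinesin list had 30 of 34 members higher under DMSO (median 1.89), the kinase list 14 of 21 (median 1.701), the replication list 6 of 51 (median 0.75) and the mesenchymal list 4 lower of 19 (median -0.72).

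The difference between the differences was tested in the same fit, TSA minus DMSO, and passed for no gene (0% of 13540). This was edgeR's count; 948 genes had an unadjusted p below 0.05, DESeq2 called 0 as well, and the smallest adjusted p in edgeR was 0.228. COL3A1 had -3.61 under TSA and -1.24 (SE 0.37) under DMSO, a difference of -2.37 (SE 0.50, adjusted p = 0.257). CDC25A had 2.28 and -0.07 (SE 0.44), a difference of 2.35 (SE 0.64, adjusted p = 0.457), and under DMSO its CPM was 33.7 and 21.3 in replicate 1 and 24.3 and 39.2 in replicate 2. CCND1 was higher in level under DMSO, with 846 and 1150.1 CPM and 1142 and 1177 CPM, and its difference was -0.97 (SE 0.22, adjusted p = 0.41). GTSE1, at 336 and 24.9 CPM and 208 and 112 CPM under DMSO, had a difference of 0.52 (SE 0.62, adjusted p = 0.882). No gene was thus shown to separate the sides differently under TSA than under DMSO. Without TSA replicate 2 the difference was called for 127 genes, and without DMSO replicate 2 for 1.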

How the data were processed

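Single cells of 6 libraries, 2 each of DMSO, TSA and E6R, were measured. The deposited matrices hold raw UMI counts per gene and barcode, not normalized; the submitters' processing notes name STARsolo 2.7.9a and GRCh38, while the annotation, strand rule and choice of barcodes are not given in the sources used here. Cells had at least 1000 UMIs, 500 genes and at most 20% mitochondrial UMIs. Doublets were not called; an alternative dropped the 5% of cells with the highest UMI totals.

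UMIs were summed per library and side, giving 12 sums. The 10 score genes were removed, and the rest was fitted with edgeR 4.0.16 in R 4.3.3 (quasi-likelihood, TMM, filterByExpr) with library as a block and a side term per treatment. Both sides come from the same library, which pairs them. All 6 libraries shared the estimate of spread (common biological coefficient of variation 0.111, 3 residual degrees of freedom). The estimate of each gene was drawn towards that of all genes, with 17.3 prior degrees of freedom. Adjusted p-values are Benjamini-Hochberg values over all 13540 genes, called under 0.05, and SE was computed from the F statistic. A single value in 2 libraries with paired sides cannot go below p = 0.5 in an exact permutation test, so none was run. In simulated data with 13258 genes in the fit, 90% of 100 genes changed 2-fold and 100% of 100 changed 4-fold were called under TSA. In the same data 10 unchanged genes were called. Changed genes had at least 20 CPM on average and the same fold in both TSA libraries, and no other gene differed between the sides. Unequal side differences between libraries, as seen here, were not simulated, so these rates do not cover them. CPM used TMM-scaled sums, except in quartiles and small barcodes. Depth per sum is given in the report.

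Positions are from GENCODE 29, which held 34616 of 36601 gene identifiers (94.6%). Alternatives included other scalings, DESeq2 1.42.0, no low-count filter, no library block, thinning to 1000 UMIs, other cell filters and sides, and leaving out each library. The members and the 17 gene lists were chosen with earlier results of these data known. Named genes were the 10 largest rises and falls with adjusted p under 0.05, at least 20 CPM on average and the same direction in both TSA libraries, up to 2 called genes per list and direction, and 21 genes regardless of result. The rule also took up to 3 genes per direction passing the TSA minus DMSO test, of which there were none. A gene that the rule takes is not reported here. Others were named after their values were seen, to complete small counts or for their abundance.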

Additional observations from a re-analysis of the deposited data

How the results depend on the processing

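The TSA count of 963 stayed within 1.5 times under RLE scaling, total counts, no low-count filter, TSA libraries alone, sides of 10% and 50%, at least 2000 UMIs, at most 10% mitochondrial UMIs, the score without TOP2A, MKI67 and CENPF, and without mitochondrial and ribosomal protein genes. It was 258 with DESeq2, 51 in cells thinned to 1000 UMIs before scoring, 533 without the 5% largest cells and 637 in cells with at least 3% mitochondrial UMIs. With no replicate block, that is without the library pairing of the sides, it was 0, with 840 genes at an unadjusted p under 0.05. Leaving out 1 library gave 159 to 1368. The TSA minus DMSO count of 0 became 24 with no low-count filter, and 0 to 127 with 1 library left out.

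Of 1466 settings of the named genes, 1183 kept direction and side of the threshold, 271 lost the call, 6 gained one and 6 reversed. E2F7 had -0.46 in thinned cells. HDAC1, never called, had -0.027 with total counts only, -0.061 in thinned cells, -0.12 at most 10% mitochondrial UMIs and -0.00137 with the shorter score. CDKN1B, also not called, had 0.056 without TSA replicate 2 and -0.579 without TSA replicate 1. DESeq2 lost 31 of the 63 called named genes, thinning 51 and leaving out TSA replicate 1 32. The cause of these shifts was not tested.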

Other observations

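The gene families below were chosen after their values were seen. Genes of the Fanconi pathway and homologous recombination repair broken or crosslinked DNA during and after replication. They were higher in mitotic-high cells in 15 of 24 members, against 3.81% of all genes tested. Their median log2 fold change was 1.20 beside -0.01 over all genes. XRCC2 changed by 2.17 (adjusted p = 0.000265) and BRCA1 by 1.79 (adjusted p = 6.5e-05). Under DMSO the median of the family was 0.61 and 2 members were called. Under TSA 4 members were called without TSA replicate 1, 8 with DESeq2 and 0 in cells thinned to 1000 UMIs.

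Tubulins were higher in 6 of 13 tested members, against 3.81% of all genes tested, and lower in none, and in 2 of 13 without TSA replicate 1. TUBB4B changed by 1.49 and TUBA1B by 1.26, while TUBB3, the neuronal isotype, had 0.20 (adjusted p = 0.449). Of 53 tested histone genes 6 were higher and 5 lower, beside 3.81% and 3.3% of all genes tested. The lower ones included HIST2H2BE at -1.54, HIST1H2BG at -1.35 and HIST1H2BD at -1.08, all H2B genes, and the higher ones H2AFX, HIST1H4C and HIST1H4E. In histone genes the count was 0 higher and 1 lower without TSA replicate 1, and 13 higher and 4 lower without TSA replicate 2.

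Collagens were lower in 8 of 22 tested members and integrins in 6 of 17, against 3.3% of all genes tested. None was higher in either family. Besides COL3A1, COL4A2 had -2.05 and COL6A3 -1.61, and among integrins ITGA6 had -1.44 and ITGA3 -1.34. Without TSA replicate 1 the counts were 2 and 2, and without TSA replicate 2 they were 9 and 6. DESeq2 called 4 collagens and 3 integrins, and thinning left 1 and 0.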
